A study of Mus musculus with 16 samples.

Results

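The matrix metalloproteinases (Mmp genes), the ADAMTS proteases, the ADAMTS-like proteins and the tissue inhibitors of metalloproteinases (Timp genes) were examined in mouse hearts. They were chosen by gene symbol alone, which gave 47 of the 18346 genes in the count table: 19 Mmp, 19 Adamts, 5 Adamtsl and 4 Timp genes. Of the 47, 36 passed the filter on low counts and were tested. RNA was sequenced in bulk from 16 dissected hearts, 4 per group. The groups were systemic Armh4 knockout mice at 25 months (aged KO), wild-type mice at 25 months (aged WT), systemic Armh4 knockout mice at 8 weeks (young KO) and wild-type mice at 8 weeks (young WT). The knockout is of the whole body. The normal mice are described as c57bl/6j, while the background of the knockout animals, the allele and the sexes are not given in the sources used here. The labels give no treatment other than age, and all mice were kept in the same housing on normal food. The hearts of a group are described as independent biological replicates, and each is named here by its genotype and animal number, as in KO-114. Values of single hearts follow the order KO-114, KO-115, KO-122 and KO-125 (aged KO), WT-1, WT-4, WT-5 and WT-12 (aged WT), KO-27, KO-31, KO-38 and KO-53 (young KO), and WT-29, WT-34, WT-39 and WT-42 (young WT).

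Matrix metalloproteinases and ADAMTS enzymes are zinc-dependent proteases that act outside the cell or at its surface. They are made as inactive precursors. Matrix metalloproteinases cut collagens, elastin, laminins and many signalling proteins, and several ADAMTS enzymes cut large proteoglycans such as versican and aggrecan or remove the end pieces of procollagens. The TIMP proteins bind the active site and block it, and ADAMTS-like proteins resemble the ADAMTS family but have no protease domain and sit on microfibrils. In the heart the balance between proteases and inhibitors is known for its part in scar formation, remodelling of the ventricle and spread of fibrous tissue. RNA levels do not measure the active enzymes.

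Total counts were 11456503 to 13298660 per heart, and the 47 genes together took 0.113% to 0.151% of them. Armh4, the targeted gene, stood at 0.889 to 1.68 CPM (counts scaled to the TMM effective library size) in aged KO hearts, 15.9 to 20.3 CPM in aged WT hearts, 0.0825 to 0.500 CPM in young KO hearts and 12.7 to 17.7 CPM in young WT hearts. Cardiomyocyte markers were present in every heart, at a summed 74103 to 103818 CPM. The first principal component of all tested genes (40.7% of their variance) had aged hearts on 1 side and young hearts on the other, and aged heart WT-1 lay farthest out. Changes are log2 values ± SE from edgeR's quasi-likelihood test, with p-values adjusted by Benjamini-Hochberg over the 13373 genes. The SE is approximate: it is the size of the log2 change divided by the square root of the test's F value. The words rose, fell and changed are kept for an adjusted p under 0.05, also termed called. Each group enters more than 1 comparison, so values given side by side share hearts. The 10 atrial markers summed to 324 to 804 CPM in aged KO and 279 to 606 CPM in aged WT hearts. In young hearts the sums were 420 to 881 CPM (KO) and 459 to 643 CPM (WT). Of 9 tested, 0 were called between genotypes at either age. Among them Myl7 stood at 0.323 to 39.4 CPM in aged KO and 0 to 0.243 CPM in aged WT hearts, while Nppa overlapped. The part of atrial tissue in the member values was not tested.

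Compared per length, in the deposited FPKM values, the inhibitor genes Timp3 and Timp2 led the family. Averaged over the 16 hearts, Timp3 stood at 97.3 FPKM and Timp2 at 44.2 FPKM. The next levels were 34.6 FPKM for Adamtsl5, 27.8 FPKM for the gelatinase gene Mmp2, 24.7 FPKM for the membrane-anchored protease gene Mmp15, 18.5 FPKM for Adamtsl4, 18.2 FPKM for Timp4 and 14.1 FPKM for Adamts1. Mmp3 and Timp1 had similar averages, 7.45 FPKM and 7.27 FPKM, and among genes above 1 FPKM they had the widest spans between hearts, from 1.69 to 34.6 FPKM for Mmp3 and from 1.39 to 39.4 FPKM for Timp1. Below 1 FPKM lay Mmp12, Mmp17, Mmp9, Mmp13, Mmp16 and, of the Adamts family, Adamts4, Adamts8, Adamts12, Adamts14 and Adamts19, with Adamtsl1. The level of a gene thus spans several orders of magnitude within the family, more than it does between hearts for any 1 of them.

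**Figure D1:**
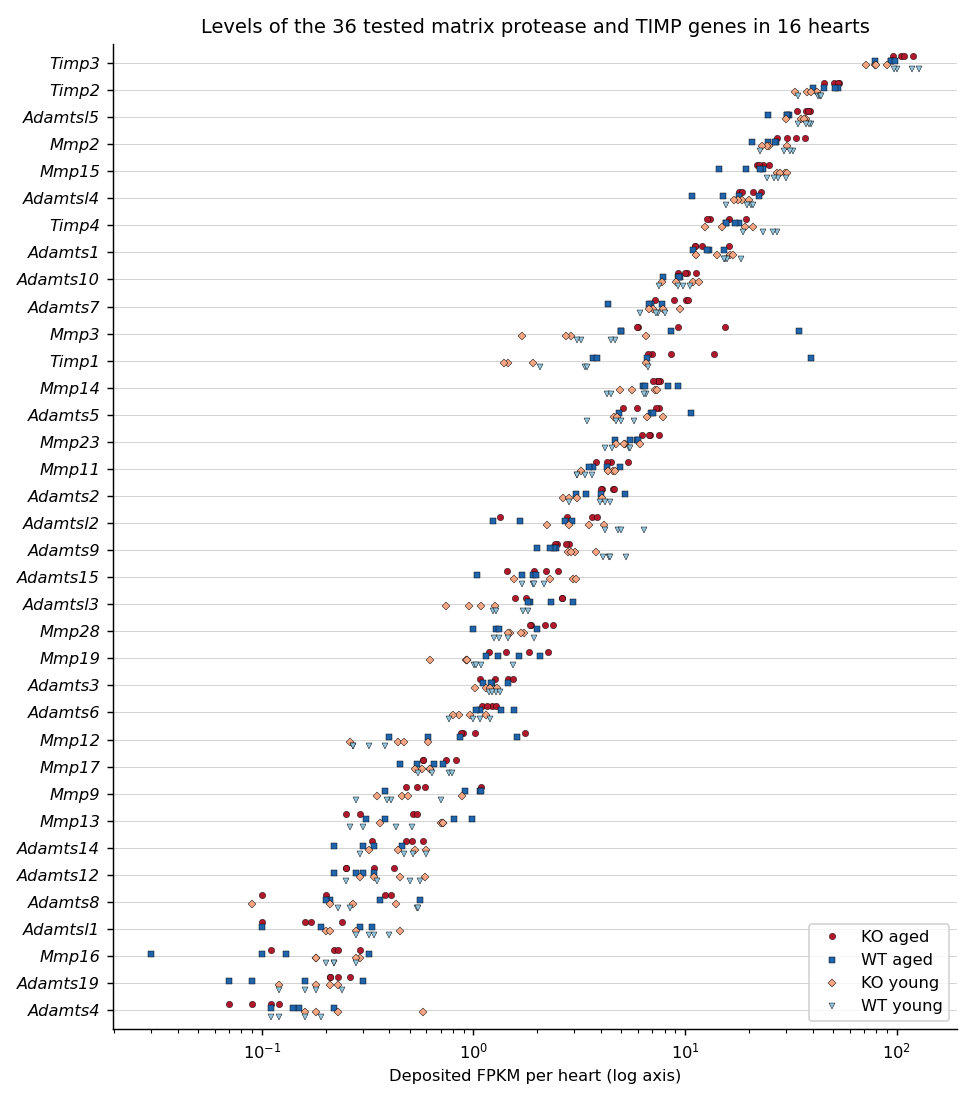
Deposited FPKM (log axis) of the 36 tested genes, 1 marker per heart and 4 hearts per group, sorted by the average over 16 hearts. Timp3 and Timp2 lie highest (97.3 and 44.2 FPKM on average) and Adamts4 lowest; Mmp3 and Timp1 have single hearts far above the rest.

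More members were called with age than between genotypes, and the same held over all genes. In aged KO against aged WT hearts 1 of 36 members (2.78%) rose (Adamtsl5) and 0 fell, where 0.172% of all genes rose and 0.942% fell. In young KO against young WT hearts 0 rose and 2 (5.56%) fell (Adamts9 and Timp3), where 0.0598% of all genes rose and 0.262% fell. With age in KO hearts 5 rose (Adamtsl3, Mmp19, Mmp12, Timp2 and Timp3) and 2 fell (Adamts4 and Adamts9). These were 13.9% and 5.56% of the 36 members, against 5.03% and 2.64% of all genes. With age in WT hearts 3 rose (Mmp3, Mmp12 and Mmp14) and 6 fell (Adamts9, Adamtsl2, Adamtsl5, Mmp15, Timp3 and Timp4). These were 8.33% and 16.7% of the 36 members, against 11.9% and 10.0% of all genes. The ageing change differed between KO and WT for Adamts9 and Timp3 (5.56% of members), in both cases with the higher value in KO hearts. Of all genes, 0.135% were called in that direction and 0.441% in the other. At an unadjusted p under 0.05, 6 members passed in aged KO against aged WT hearts, all of them higher, where 10.98% of all genes passed, and 7 in young KO against young WT hearts, 2 of them higher, where 11.16% passed. DESeq2 called the same 1 and the same 2 genes. The median log2 change of the 36 members was 0.13 in aged KO against aged WT hearts, -0.06 in young KO against young WT hearts, 0.07 with age in KO hearts and -0.15 with age in WT hearts; over all genes tested the medians were 0.00, 0.00, -0.01 and -0.01. In bulk tissue, fewer cells of a type and less RNA per cell cannot be told apart, here and in what follows.

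Groups whose hearts do not overlap in CPM were counted as well. In aged KO against aged WT hearts 5 of 36 members (13.9%) lay wholly higher in KO (Adamts9, Adamts10, Adamtsl5, Mmp2 and Mmp23). Wholly lower lay 0 members. The shares of all genes were 2.10% and 2.94%. Young KO hearts lay wholly above young WT hearts for Mmp12 and wholly below for Adamts9, Adamtsl2, Timp3 and Mmp19. These were 2.78% and 11.1% of members, against 4.06% and 4.43% of all genes. Aged KO hearts lay wholly above young KO hearts for 7 members (Adamtsl3, Adamts6, Timp1, Timp2, Mmp12, Mmp19 and Mmp28) and wholly below for 3 (Adamts4, Adamts9 and Mmp15). These were 19.4% and 8.33% of members, against 8.71% and 6.97% of all genes. Aged WT hearts lay wholly above young WT hearts for 2 (Mmp3 and Mmp12) and wholly below for 7 (Adamts1, Adamts9, Adamtsl2, Adamtsl5, Mmp15, Timp3 and Timp4). These were 5.56% and 19.4% of members, against 12.0% and 9.68% of all genes.

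**Figure D2:**
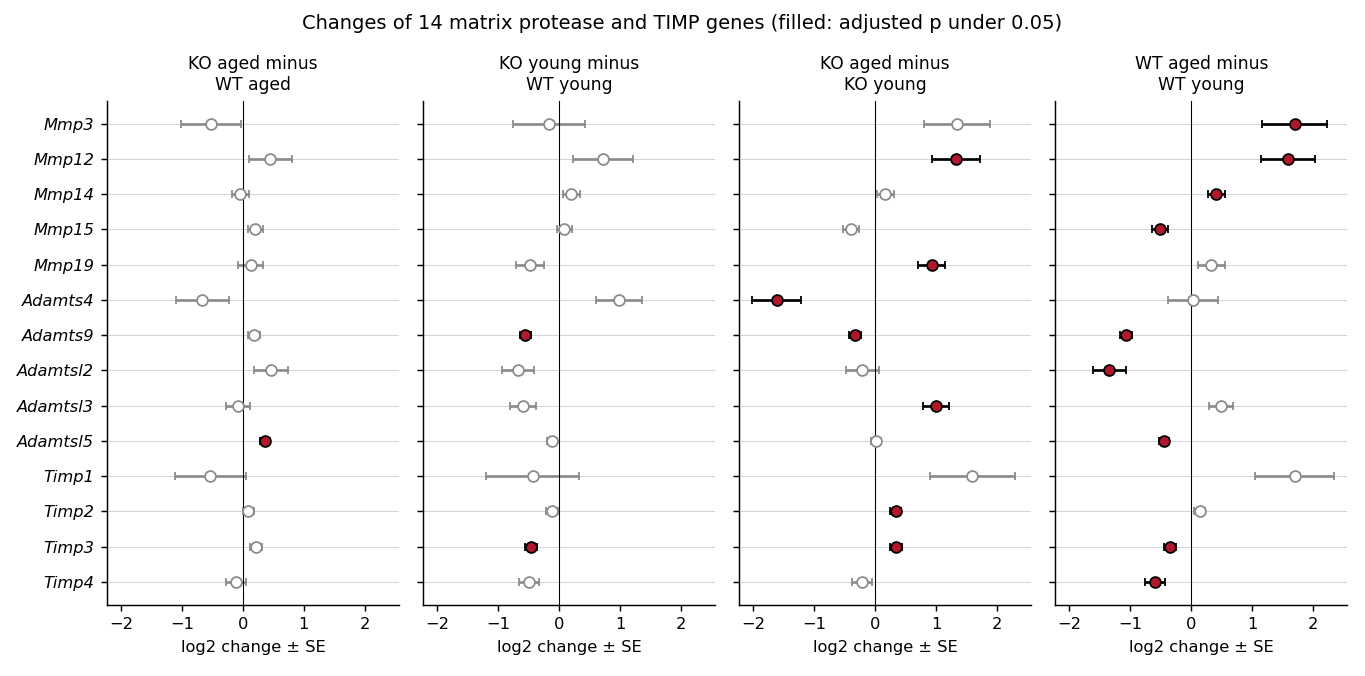
Log2 change ± SE (edgeR, 4 hearts per group) of the 13 members called in any group comparison and of Timp1, which was called in none, in KO against WT at each age and in aged against young hearts of each genotype; filled points have an adjusted p under 0.05. Adamts9 and Timp3 are filled in 3 of the 4 panels.

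Adamts9, whose product cleaves versican and aggrecan, had the lowest adjusted p of all members. It stood at 21.3, 20.5, 18.9 and 18.8 CPM in aged KO hearts, 18.4, 18.3, 15.96 and 17.4 in aged WT hearts, 23.8, 29.6, 22.8 and 23.9 in young KO hearts and 40.9, 35.0, 37.6 and 33.1 in young WT hearts. Young WT hearts were highest, young KO hearts came next without overlap, and all 8 aged hearts lay below all 8 young hearts. It fell in young KO against young WT hearts, with a log2 change of -0.55 ± 0.09 (edgeR's quasi-likelihood test, Benjamini-Hochberg adjusted p = 0.0240). With age it changed by -0.33 ± 0.10 (adjusted p = 0.0401) in KO hearts and by -1.07 ± 0.10 (adjusted p = 7.08e-07) in WT hearts. The difference between these ageing changes was 0.73 ± 0.13 (adjusted p = 0.0127). In aged KO against aged WT hearts the change was 0.18 ± 0.10 (adjusted p = 0.516) and did not pass, although these 2 groups did not overlap.

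The WT ageing call of Adamts9 was kept in 17 of 17 alternative settings, and the difference in ageing change in 22 of 24, being lost only in the fits to log2 FPKM. Each heart was also left out alone, and the call in young KO hearts was lost without young hearts KO-27, KO-38, KO-53, WT-29 or WT-39 (log2 change -0.53 to -0.49, adjusted p 0.0501 to 0.1002) and also in limma fits to log2 FPKM. The call with age in KO hearts was lost without aged hearts KO-114, KO-115, KO-122 or KO-125 or young hearts KO-27, KO-31 or KO-53 (log2 change -0.36 to -0.24, adjusted p 0.0513 to 0.138) and also with scaling by library size alone, in limma fits to log2 FPKM, in a fit to the 2 groups alone and with no filter on low counts. On the opposite strand, Adamts9 exons share 1381 of 15048 bases with A730049H05Rik and 424 bases with Gm15737 (GENCODE M21, GRCm38); the labels do not say whether counting used strand, so reads from these stretches cannot be assigned to 1 gene.

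Timp3 codes for the inhibitor that binds to the matrix and also blocks several ADAMTS enzymes. It stood at 412, 498, 452 and 477 CPM in aged KO hearts, 400.1, 405, 355 and 419 in aged WT hearts, 349, 315, 414 and 372 in young KO hearts and 516, 447, 459 and 579 in young WT hearts. Young KO hearts lay below every young WT heart; aged KO and aged WT hearts overlapped. Timp3 fell in young KO against young WT hearts, with a log2 change of -0.46 ± 0.10 (adjusted p = 0.0497). With age it rose in KO hearts, by 0.34 ± 0.10 (adjusted p = 0.0384), and fell in WT hearts, with a change of -0.34 ± 0.10 (adjusted p = 0.0177). This difference in ageing change, 0.69 ± 0.14 (adjusted p = 0.0291), passed the test. Between aged KO and aged WT hearts the change was 0.22 ± 0.10 (adjusted p = 0.406).

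The Timp3 calls lay close to the threshold. The call in young KO hearts was lost without young hearts KO-27, KO-31, KO-38, KO-53, WT-29, WT-34, WT-39 or WT-42 (log2 change -0.53 to -0.39, adjusted p 0.0535 to 0.241) and also with scaling by library size alone, in limma fits to log2 FPKM and with a filter of 1 CPM in 4 libraries, and was kept in 5 of 17 alternatives. The difference in ageing change was lost without aged hearts KO-115, KO-122 or KO-125 or young hearts KO-27, KO-31, KO-53, WT-29 or WT-42 (log2 change 0.61 to 0.69, adjusted p 0.0514 to 0.0781). With age in KO hearts the call was lost without aged hearts KO-115, KO-122 or KO-125 or young hearts KO-27, KO-31 or KO-53 (log2 change 0.28 to 0.36, adjusted p 0.0683 to 0.118), and with age in WT hearts without aged heart WT-5 or young heart WT-42 (log2 change -0.29 to -0.26, adjusted p 0.0507 to 0.0766) and also with scaling by library size alone and in limma fits to log2 FPKM. Timp3 lies within the gene Syn3 on the opposite strand, and 1733 of its 8144 exon bases are shared with Syn3 exons; Syn3 itself had 10.7 to 36.5 counts per heart, against 3823 to 6902 for Timp3.

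The 100 bases before the annotated starts of the 2 genes with a difference in ageing change are shown, because these are the 2 members with a called difference in ageing change. They are from RefSeq, build GRCm38.p6 (the counts were made on GRCm39): Adamts9 at chr6:92943535-92943634, minus strand, and Timp3 at chr10:86300312-86300411, plus strand. Capitals mark GGGCGG or its complement on the other strand, the letters of a GC box, a promoter element bound by Sp-family factors.
Adamts9: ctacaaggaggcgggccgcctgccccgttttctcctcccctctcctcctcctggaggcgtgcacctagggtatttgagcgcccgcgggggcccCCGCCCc
Timp3: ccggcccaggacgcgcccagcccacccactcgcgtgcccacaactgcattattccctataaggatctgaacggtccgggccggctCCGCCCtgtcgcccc
Both windows are rich in G and C, at 71.2% and 65.6% of their 250 bases, and neither holds TGANTCA or TATAAA, the letters searched in the Mmp promoters further on. GGGCGG on either strand was found in 20 of the 34 member windows of 250 bases, 58.8%, and in 32.7% of 32851 windows of all promoters; it was searched after the sequences had been seen. RefSeq windows were matched for 32 of the 47 members, and a match is a description of letters, not of a bound site.

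Among the other proteoglycan-cleaving Adamts genes only Adamts4 was called. Adamts4, an aggrecanase gene of low level, stood at 0.688, 0.414, 0.533 and 0.647 CPM in aged KO hearts, 1.30, 0.872, 0.687 and 0.800 in aged WT hearts, 3.53, 1.40, 0.990 and 1.17 in young KO hearts and 0.966, 0.724, 1.21 and 0.671 in young WT hearts. Young heart KO-27 was far above the other 15 hearts, while aged KO hearts lay wholly below young KO hearts and overlapped both WT groups. It fell with age in KO hearts, with a change of -1.61 ± 0.40 (adjusted p = 0.0173), a call lost without aged heart KO-115 or young heart KO-27 (log2 change -1.49 to -1.04, adjusted p 0.0592 to 0.0745) and also in limma fits to log2 FPKM. With age in WT hearts the change was 0.03 ± 0.41 (adjusted p = 0.964), and the difference in ageing change was -1.65 ± 0.58 (adjusted p = 0.234). Its counts were 5 to 42 per heart, near the filter.

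Adamts1, an early-response gene of the same group, had changes with age of -0.29 ± 0.14 (adjusted p = 0.230) in KO hearts and -0.38 ± 0.14 (adjusted p = 0.0543) in WT hearts that did not pass, although its aged WT hearts lay wholly below the young ones. Adamts5, the main aggrecanase of mouse cartilage, had a change of 0.06 ± 0.18 (adjusted p = 0.884) with age in KO hearts and 0.50 ± 0.18 (adjusted p = 0.0513) in WT hearts. Adamts8 and Adamts15 were called in no comparison; in young KO against young WT hearts Adamts8 had a change of -0.66 ± 0.46 (adjusted p = 0.616) and Adamts15 one of 0.39 ± 0.20 (adjusted p = 0.477). The 3 procollagen-processing genes, Adamts2, Adamts3 and Adamts14, were called in none of the 5 comparisons. Their log2 changes with age were -0.06 to 0.38 in KO hearts, highest for Adamts2, and -0.54 to -0.05 in WT hearts, lowest for Adamts14. Adamts2 had fractional counts in 5 libraries. Among the remaining Adamts genes tested (Adamts6, Adamts7, Adamts10, Adamts12 and Adamts19) none was called either. Adamts10, which acts on microfibrils, lay wholly higher in aged KO than in aged WT hearts, with a change of 0.21 ± 0.10 (adjusted p = 0.470). Adamts6, whose aged KO hearts lay wholly above young KO hearts, had an ageing change of 0.36 ± 0.16 (adjusted p = 0.210) in KO hearts and 0.31 ± 0.16 (adjusted p = 0.186) in WT hearts. Adamts7, known for cutting cartilage oligomeric matrix protein, had changes of 0.22 ± 0.17 (adjusted p = 0.497) with age in KO hearts and -0.29 ± 0.17 (adjusted p = 0.235) in WT hearts. For Adamts12, which cuts the same protein, they were -0.48 ± 0.25 (adjusted p = 0.273) in KO hearts and -0.58 ± 0.25 (adjusted p = 0.106) in WT hearts, and for the valve-linked Adamts19 -0.10 ± 0.36 (adjusted p = 0.904) and -0.14 ± 0.40 (adjusted p = 0.832).

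Of the 5 ADAMTS-like genes, 1 was higher in aged KO than in aged WT hearts, 1 rose with age in KO hearts and 2 fell with age in WT hearts. Adamtsl5, whose product binds microfibrils, stood at 100.01, 89.0, 105 and 106 CPM in aged KO hearts, 81.2, 81.6, 68.8 and 81.1 in aged WT hearts, 103, 97.8, 86.6 and 107 in young KO hearts and 108, 109, 102 and 107 in young WT hearts. Aged WT hearts were the low group: none of their values reached those of the other 12 hearts. Adamtsl5 was higher in aged KO than in aged WT hearts by 0.36 ± 0.08 (adjusted p = 0.0394). In young KO against young WT hearts the change was -0.11 ± 0.08 (adjusted p = 0.650). With age the change was 0.02 ± 0.08 (adjusted p = 0.927) in KO hearts and -0.44 ± 0.08 (adjusted p = 0.000716) in WT hearts, where it fell. The difference in ageing change, 0.46 ± 0.12 (adjusted p = 0.0815), did not pass. The call in aged KO hearts was kept in 7 of 17 alternatives and was lost without aged hearts KO-114, KO-122, KO-125, WT-1, WT-4 or WT-5 (log2 change 0.30 to 0.38, adjusted p 0.0502 to 0.156) and also with scaling by library size alone, in limma fits to log2 FPKM and in a fit to the 2 groups alone, while the fall with age in WT hearts was kept in 17 of 17.

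Adamtsl2, which binds fibrillin and a latent TGF-beta binding protein and is mutated in human geleophysic dysplasia, had the largest called fall with age in WT hearts among members. It stood at 11.9, 8.61, 12.6 and 4.45 CPM in aged KO hearts, 9.24, 8.64, 4.20 and 5.36 in aged WT hearts, 13.8, 7.49, 12.3 and 10.01 in young KO hearts and 21.2, 16.4, 14.8 and 17.1 in young WT hearts. Young WT hearts lay above all other hearts; the 3 other groups overlapped. The changes with age were -0.21 ± 0.27 (adjusted p = 0.710) in KO hearts and -1.34 ± 0.27 (adjusted p = 0.00154) in WT hearts, the WT call being kept in 17 of 17 alternatives. In young KO against young WT hearts the change was -0.68 ± 0.26 (adjusted p = 0.337), and the difference in ageing change was 1.13 ± 0.38 (adjusted p = 0.216); neither passed.

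Adamtsl3 moved the other way. Its levels were 10.7, 17.5, 12.3 and 18.4 CPM in aged KO hearts, 15.8, 12.8, 13.1 and 20.3 in aged WT hearts, 9.08, 6.75, 8.01 and 5.50 in young KO hearts and 8.69, 9.25, 13.2 and 13.2 in young WT hearts. All aged KO hearts lay above all young KO hearts, whereas aged and young WT hearts overlapped. It rose with age in KO hearts by 1.002 ± 0.21 (adjusted p = 0.00575), a call kept in 17 of 17 alternatives, and in WT hearts the change was 0.49 ± 0.20 (adjusted p = 0.0906). The difference between these was 0.52 ± 0.29 (adjusted p = 0.499), so the 2 genotypes were not shown to differ. Adamtsl4, the second most abundant ADAMTS-like gene, and Adamtsl1 were called in no comparison. The ageing change of Adamtsl4 was 0.05 ± 0.16 (adjusted p = 0.889) in KO hearts and -0.29 ± 0.16 (adjusted p = 0.221) in WT hearts, and that of Adamtsl1 -0.83 ± 0.34 (adjusted p = 0.154) and -0.61 ± 0.32 (adjusted p = 0.183).

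**Figure D3:**
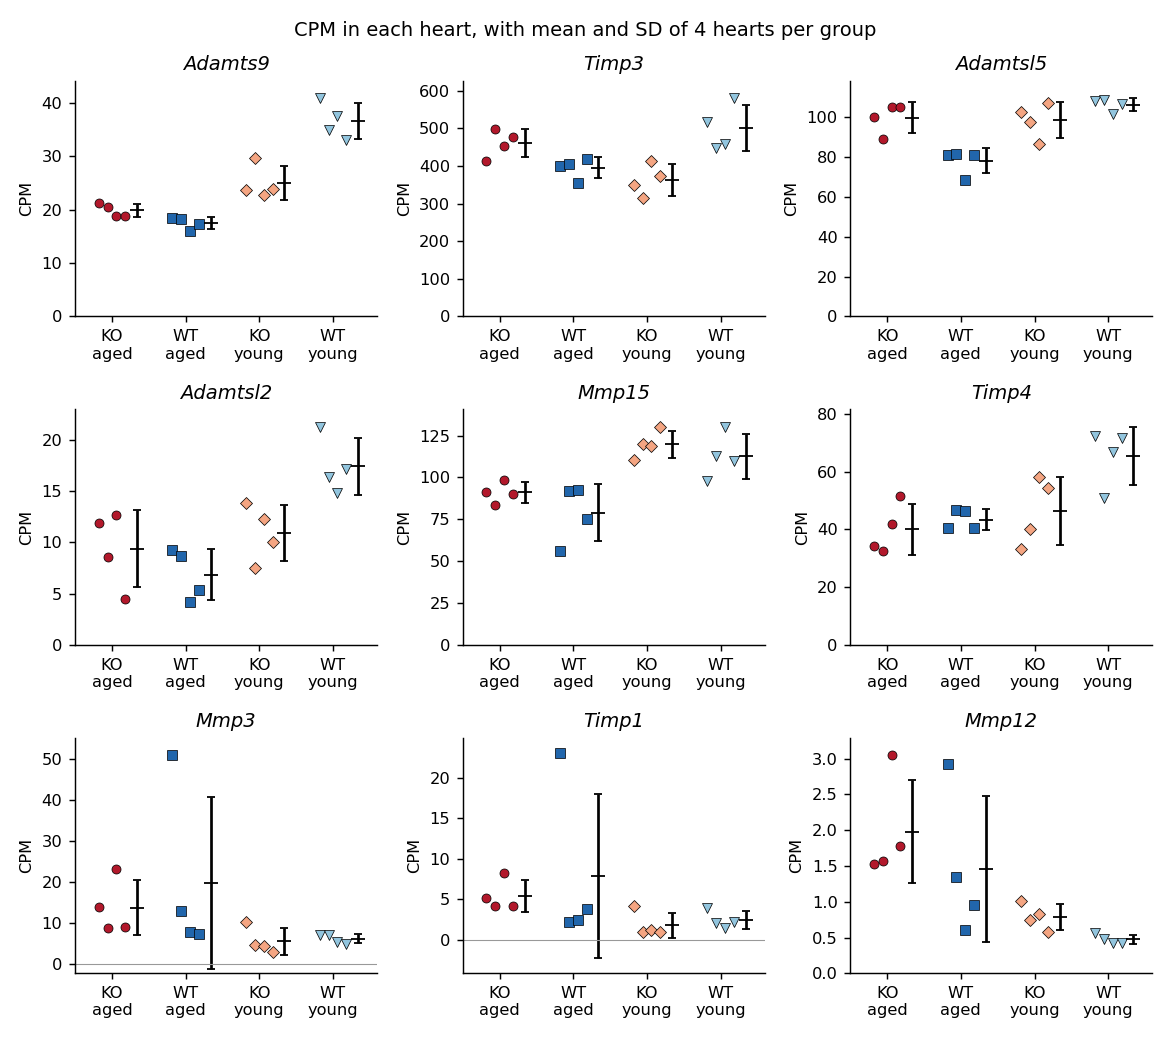
CPM of 9 members in each heart (points), with mean and SD of 4 hearts (bar), in aged KO, aged WT, young KO and young WT hearts. Adamts9 and Timp3 are lower in young KO than in young WT hearts, Adamtsl5 is lowest in aged WT hearts, and Mmp3 and Timp1 have 1 aged WT heart at 51.2 and 23.1 CPM; grey lines mark 0 where an SD bar reaches below it.

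Besides Timp3, the inhibitor genes Timp4 and Timp2 were each called once. Timp4, the TIMP known for its high level in heart muscle, stood at 34.1, 32.4, 41.96 and 51.7 CPM in aged KO hearts, 40.4, 46.6, 46.3 and 40.3 in aged WT hearts, 33.1, 40.2, 58.0 and 54.4 in young KO hearts and 72.4, 50.8, 66.9 and 71.6 in young WT hearts. Its aged WT hearts lay below all young WT hearts, and it fell with age in WT hearts, with a change of -0.59 ± 0.16 (adjusted p = 0.0147) that was kept in 17 of 17 alternatives. In KO hearts the aged and young values overlapped, and the change was -0.21 ± 0.17 (adjusted p = 0.497). On the other strand 90 of its 5894 exon bases overlap Syn2. Young KO hearts averaged 46.4 ± 11.7 CPM and young WT hearts 65.4 ± 10.03 CPM (SD, n = 4 each), a difference of -0.49 ± 0.16 (adjusted p = 0.265) that did not pass.

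Timp2 both inhibits MMP2 and helps the membrane protease MMP14 to activate its precursor. It stood at 148, 169, 165 and 177 CPM in aged KO hearts, 147, 172, 137 and 165 in aged WT hearts, 141, 126, 137 and 117 in young KO hearts and 141, 148, 123 and 152 in young WT hearts. Aged KO hearts lay above young KO hearts without overlap, and Timp2 rose with age there by 0.34 ± 0.09 (adjusted p = 0.0282); the call was lost without aged hearts KO-115, KO-122 or KO-125 or young hearts KO-31 or KO-53 (log2 change 0.30 to 0.34, adjusted p 0.0615 to 0.0963). In WT hearts the ageing change was 0.14 ± 0.09 (adjusted p = 0.295), and the difference between the genotypes was 0.20 ± 0.13 (adjusted p = 0.570).

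Timp1, the inducible inhibitor, spread most widely between hearts. It stood at 5.12, 4.14, 8.22 and 4.12 CPM in aged KO hearts, 23.1, 2.22, 2.37 and 3.76 in aged WT hearts, 4.12, 0.906, 1.24 and 0.917 in young KO hearts and 3.94, 2.09, 1.38 and 2.18 in young WT hearts. Aged heart WT-1 was far above the other 15 hearts, and young heart KO-27 was above the rest of its group. The ageing change was 1.59 ± 0.69 (adjusted p = 0.180) in KO hearts, where the lowest aged and the highest young heart nearly met at 4.12 CPM, and 1.70 ± 0.65 (adjusted p = 0.0676) in WT hearts, where the groups overlapped; neither passed. Without young heart KO-27 the KO ageing change was 2.397 ± 0.79 (adjusted p = 0.0878), and without aged heart WT-1 the WT ageing change was 0.22 ± 0.44 (adjusted p = 0.774). Between aged KO and aged WT hearts it was -0.53 ± 0.59 (adjusted p = 0.816), and 0.95 ± 0.41 without aged heart WT-1 (adjusted p = 0.478).

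The summed FPKM of the 4 Timp genes averaged 182 ± 12.5 in aged KO, 169 ± 22.1 in aged WT, 138 ± 11.3 in young KO and 179 ± 21.5 in young WT hearts (SD, n = 4 each). Timp3 made up 58.8% of that sum in aged KO hearts, 54.5% in aged WT, 58.1% in young KO and 61.6% in young WT hearts. The ratio of summed Mmp to summed Timp FPKM was 0.499 ± 0.0734 in aged KO, 0.484 ± 0.0488 in aged WT, 0.576 ± 0.0675 in young KO and 0.441 ± 0.0507 in young WT hearts. On average the young KO hearts had the lowest inhibitor sum and the highest ratio. All 4 hearts of that group had an inhibitor sum of 125.4 to 152 FPKM, against 157 to 201 FPKM in young WT hearts. The ratios of young KO hearts, 0.487 to 0.637, overlapped those of every other group, among them 0.380 to 0.499 in young WT hearts. These sums and ratios describe RNA of many genes and were not tested.

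Among the membrane-anchored proteases, Mmp15 fell and Mmp14 rose with age in WT hearts. Mmp15 stood at 91.4, 83.7, 98.8 and 90.4 CPM in aged KO hearts, 56.3, 91.8, 92.6 and 75.4 in aged WT hearts, 110.4, 119.7, 119 and 130.2 in young KO hearts and 97.7, 113, 130.02 and 109.9 in young WT hearts. Within each genotype every aged heart lay below every young heart, and aged heart WT-1 was the lowest of the 16. The change with age was -0.39 ± 0.12 (adjusted p = 0.0599) in KO hearts, which did not pass, and -0.51 ± 0.12 (adjusted p = 0.00630) in WT hearts, which did; the difference between the changes was 0.12 ± 0.18 (adjusted p = 0.840). The WT call was kept in 17 of 17 alternatives.

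Mmp14, a collagen-cutting protease that activates the precursor of MMP2, stood at 26.1, 24.8, 25.8 and 24.7 CPM in aged KO hearts, 28.2, 31.7, 22.7 and 21.9 in aged WT hearts, 25.4, 26.0, 20.5 and 18.4 in young KO hearts and 22.9, 23.0, 16.2 and 16.3 in young WT hearts. Aged WT hearts overlapped young WT hearts. Its change with age was 0.17 ± 0.14 (adjusted p = 0.539) in KO hearts and 0.41 ± 0.14 (adjusted p = 0.0447) in WT hearts, where it rose. The WT call was lost without aged hearts WT-1 or WT-4 or young hearts WT-39 or WT-42 (log2 change 0.31 to 0.39, adjusted p 0.0781 to 0.146) and also in a fit to the 2 groups alone. The ageing changes of 2 other membrane-anchored protease genes, called in no comparison, were -0.21 ± 0.42 (adjusted p = 0.8291) in KO and -0.70 ± 0.45 (adjusted p = 0.289) in WT hearts for Mmp16, and 0.15 ± 0.19 (adjusted p = 0.705) and -0.29 ± 0.19 (adjusted p = 0.290) for Mmp17.

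The gelatinase genes were not called. Mmp2, the Mmp with the highest FPKM although Mmp15 had more counts, stood at 100.2, 89.3, 82.9 and 76.1 CPM in aged KO hearts, 72.4, 72.4, 58.9 and 66.5 in aged WT hearts, 85.5, 69.8, 71.4 and 69.2 in young KO hearts and 89.9, 89.0, 68.2 and 84.6 in young WT hearts. Every aged KO heart lay above every aged WT heart, while the young groups overlapped. Between aged KO and aged WT hearts the change was 0.37 ± 0.11 (adjusted p = 0.109); the ageing change was 0.24 ± 0.11 (adjusted p = 0.193) in KO hearts and -0.30 ± 0.11 (adjusted p = 0.0520) in WT hearts, and their difference 0.53 ± 0.15 (adjusted p = 0.124). The WT ageing change passed in 4 of the alternatives (DESeq2, no filter on low counts, a robust fit, and without young heart WT-39). Mmp9, the gelatinase of inflammatory cells, stood at 1.53, 1.33, 1.68 and 3.15 CPM in aged KO hearts, 1.05, 3.01, 2.67 and 3.04 in aged WT hearts, 1.34, 2.55, 1.07 and 1.501 in young KO hearts and 2.01, 1.21, 1.21 and 0.839 in young WT hearts, with all groups overlapping. Its ageing change was 0.24 ± 0.37 (adjusted p = 0.758) in KO hearts and 0.89 ± 0.37 (adjusted p = 0.0915) in WT hearts.

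The stromelysin gene Mmp3 and the macrophage elastase gene Mmp12 had the largest called rises with age among members in WT hearts. Mmp3 stood at 13.8, 8.70, 23.1 and 9.06 CPM in aged KO hearts, 51.2, 12.8, 7.72 and 7.36 in aged WT hearts, 10.1, 4.45, 4.37 and 2.75 in young KO hearts and 7.08, 6.92, 5.34 and 4.87 in young WT hearts. Aged heart WT-1 was far above all other hearts, and the other aged WT hearts also lay above all young WT hearts. The change with age was 1.34 ± 0.55 (adjusted p = 0.152) in KO hearts, which did not pass, and 1.70 ± 0.53 (adjusted p = 0.0282) in WT hearts, where it rose. The WT call was lost without aged heart WT-1 or young hearts WT-34, WT-39 or WT-42 (log2 change 0.63 to 1.77, adjusted p 0.0542 to 0.248) and also in limma fits to log2 FPKM, in a fit to the 2 groups alone and in a robust fit; without aged heart WT-1 alone it was 0.63 ± 0.37 (adjusted p = 0.248). The heart highest for Mmp3 in each group (KO-122, WT-1, KO-27 and WT-29) was also the highest for Timp1. In all 4 groups it was highest for 2 summed marker lists, fibroblast markers and the 10 valve, cartilage and tendon markers. Several other lists also peaked in some of these hearts. WT-1 and WT-29 were highest in their groups for macrophage, endothelial, adipocyte and erythroid markers as well. KO-122 was highest for macrophage markers too, and KO-27 for adipocyte and mesothelial markers. The valve, cartilage and tendon sum was 32.8 to 83.2 CPM in aged KO, 32.7 to 76.1 CPM in aged WT, 26.1 to 63.9 CPM in young KO and 30.999 to 45.6 CPM in young WT hearts, with no marker at 0; of 7 tested, 0 were called with age in KO hearts and 1 (Fmod) fell in WT hearts. Of all genes, 5.03% rose and 2.64% fell with age in KO hearts, and 11.9% rose and 10.0% fell in WT hearts. The part of these marker lists in the Mmp3 and Timp1 values was not tested.

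Mmp12 stood at 1.53, 1.57, 3.05 and 1.78 CPM in aged KO hearts, 2.92, 1.35, 0.611 and 0.960 in aged WT hearts, 1.01, 0.741, 0.825 and 0.584 in young KO hearts and 0.563, 0.483, 0.431 and 0.420 in young WT hearts. Aged KO hearts were above all young hearts of both genotypes, and aged WT hearts were above all young WT hearts. Mmp12 rose with age by 1.32 ± 0.39 (adjusted p = 0.0457) in KO hearts and by 1.59 ± 0.45 (adjusted p = 0.0154) in WT hearts. Its counts were 5 to 40 per heart, close to the filter on low counts, so whether it is tested can depend on its level in the aged hearts. The KO call was lost without aged hearts KO-115, KO-122 or KO-125 or young hearts KO-27, KO-31, KO-38 or KO-53 (log2 change 1.03 to 1.46, adjusted p 0.0607 to 0.162), and the WT call without aged heart WT-1 (log2 change 1.03, adjusted p 0.0729). The 14 macrophage markers, summed, stood at 628 to 725 CPM in aged KO hearts, 846 to 1255 CPM in aged WT, 325 to 409 CPM in young KO and 286 to 408 CPM in young WT hearts, none of them at 0; 12 of 14 rose with age in KO and 13 of 14 in WT hearts, and 1 (Mrc1) was lower in aged KO than in aged WT hearts. Of all genes, 5.03% rose with age in KO hearts and 11.9% in WT hearts. A share of 0.942% was lower in aged KO than in aged WT hearts. The part of the macrophage markers in the Mmp12 result was not tested.

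Mmp3 and Mmp12 belong to a cluster of Mmp genes on chromosome 9, where RefSeq lists Mmp13, Mmp12, Mmp1b, Mmp3, Mmp1a, Mmp10, Mmp8 and Mmp27 in that order. The 100 bases before the annotated start (RefSeq, GRCm38.p6) are shown for the members that rose and their neighbours, to compare their proximal elements: Mmp13 at chr9:7272414-7272513, plus strand, Mmp12 at chr9:7347274-7347373, plus strand (the downstream of 2 annotated starts; the upstream one holds neither motif searched), Mmp3 at chr9:7445722-7445821, plus strand, Mmp10 at chr9:7502242-7502341, plus strand, and Mmp8 at chr9:7558329-7558428, plus strand. Capitals mark TGANTCA, the letters of an AP-1 element bound by Fos and Jun proteins, and TATAAA, those of a TATA box, on either strand.
Mmp13: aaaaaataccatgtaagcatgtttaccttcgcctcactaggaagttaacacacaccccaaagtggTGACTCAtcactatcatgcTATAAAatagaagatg
Mmp12: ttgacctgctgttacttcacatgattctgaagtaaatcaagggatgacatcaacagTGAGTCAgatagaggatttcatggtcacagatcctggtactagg
Mmp3: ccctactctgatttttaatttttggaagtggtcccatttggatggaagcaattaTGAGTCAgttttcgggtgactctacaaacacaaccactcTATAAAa
Mmp10: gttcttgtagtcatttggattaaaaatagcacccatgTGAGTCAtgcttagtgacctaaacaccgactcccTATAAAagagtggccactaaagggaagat
Mmp8: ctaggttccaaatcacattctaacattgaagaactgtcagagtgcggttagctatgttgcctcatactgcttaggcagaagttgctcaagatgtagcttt
The first 4 windows hold TGANTCA, in 3 of them with TATAAA, and the Mmp8 window holds neither, as does that of the neighbour Mmp27, which is not shown. In the 250 bases before the start, TGANTCA was present in 4 of 34 member windows (11.8%) and in 6.75% of 32851 windows of all promoters, TATAAA in 17.6% and 12.4%, and both in 8.82% and 1.21%. Mmp12 held TGANTCA at its downstream start only, and TATAAA at neither start. The part of these letters in the ageing changes was not tested. The collagenase gene Mmp13 had changes of -0.69 ± 0.38 (adjusted p = 0.304) with age in KO hearts and 0.63 ± 0.38 (adjusted p = 0.257) in WT hearts, and Mmp10 had 2 counts over all 16 hearts.

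Mmp19, a secreted protease of basement membrane components, rose with age in KO hearts. It stood at 4.28, 5.47, 6.70 and 3.64 CPM in aged KO hearts, 6.00, 3.88, 3.59 and 4.96 in aged WT hearts, 2.86, 2.80, 2.89 and 2.001 in young KO hearts and 4.75, 3.06, 3.62 and 3.19 in young WT hearts. Young KO hearts were lowest and overlapped no other group. The rise with age was 0.93 ± 0.22 (adjusted p = 0.0146) in KO hearts, lost without aged heart KO-122 or young heart KO-53 (log2 change 0.76 to 0.82, adjusted p 0.0562 to 0.0607), and in WT hearts the change was 0.33 ± 0.22 (adjusted p = 0.292); the difference was 0.60 ± 0.31 (adjusted p = 0.461). Mmp19 had fractional counts in all 16 libraries, and 789 of its 3533 exon bases overlap Tmem198b on the other strand (97.2 to 160 counts), so its values are uncertain. Mmp11, Mmp23 and Mmp28 were called in no comparison. Between aged KO and aged WT hearts the change was 0.56 ± 0.19 (adjusted p = 0.199) for Mmp28, which also had fractional counts in all libraries, and 0.34 ± 0.12 (adjusted p = 0.264) for Mmp23. Mmp11, the stromelysin with the highest FPKM after Mmp3, had ageing changes of 0.03 ± 0.14 (adjusted p = 0.936) in KO hearts and 0.26 ± 0.14 (adjusted p = 0.201) in WT hearts.

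The filter left out 11 members. Adamts16, Mmp21 and Mmp10 had 1, 1 and 2 counts over all hearts, and Adamts18, Mmp24, Adamts13, Mmp8, Mmp25, Mmp27, Adamts20 and Adamts17 had between 9 and 112. Mmp8, the collagenase of neutrophils, had 1, 2, 2 and 5 counts in aged KO hearts, 21, 9, 6 and 14 in aged WT hearts, 0, 0, 0 and 0 in young KO hearts and 0, 2, 1 and 0 in young WT hearts. Every aged WT heart was above every heart of the other groups, and the total of 0 in young KO hearts allows up to 3 counts. The ratio of aged KO to aged WT was 0.200 (95% counting interval 0.0902 to 0.398), and that of aged WT to young WT 16 (5.15 to 80.0); these intervals cover counting error only. In a fit with no filter the changes were -2.27 ± 0.58 (adjusted p = 0.0623) in aged KO against aged WT hearts and 3.79 ± 0.72 (adjusted p = 0.000821) with age in WT hearts.

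Mmp25, a membrane-anchored protease also known from neutrophils, had 4, 4, 3 and 5 counts in aged KO hearts, 7, 9, 10 and 4 in aged WT hearts, 3, 1, 8 and 3 in young KO hearts and 2, 1, 2 and 0 in young WT hearts. Aged KO to aged WT gave a ratio of 0.532 (0.271 to 1.01), and aged WT to young WT 5.74 (2.21 to 19.0). The groups overlapped in the aged hearts. With no filter the WT ageing change of Mmp25 was 2.402 ± 0.63 (adjusted p = 0.00975), that of Adamts17 was -1.25 ± 0.43 (adjusted p = 0.0492), and Mmp27 rose with age in KO hearts by 1.84 ± 0.54 (adjusted p = 0.0482). The 11 neutrophil markers, summed, stood at 4.89 to 15.8 CPM in aged KO hearts, 22.3 to 36.4 CPM in aged WT, 1.85 to 4.12 CPM in young KO and 1.89 to 2.58 CPM in young WT hearts, with Mpo, Elane and Ly6g at 0 in aged KO hearts, Mpo in aged WT, those 3 and Camp in young KO, and Elane, Ly6g and Camp in young WT hearts. Of the 4 tested, 3 were lower in aged KO than in aged WT hearts, 2 rose with age in KO hearts and 4 in WT hearts. The shares of all genes were 0.942%, 5.03% and 11.9%. Erythroid and blood markers summed to 924 to 1876 CPM in aged KO and 1050 to 2256 CPM in aged WT hearts. The sums were 640 to 1107 CPM in young KO and 549 to 742 CPM in young WT hearts. Of 8 tested, 8 rose with age in WT hearts and 0 in KO hearts, against 11.9% and 5.03% of all genes. Between genotypes 0 were called at either age. The part of neutrophil and blood markers in the Mmp8 and Mmp25 counts was not tested.

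**Figure D4:**
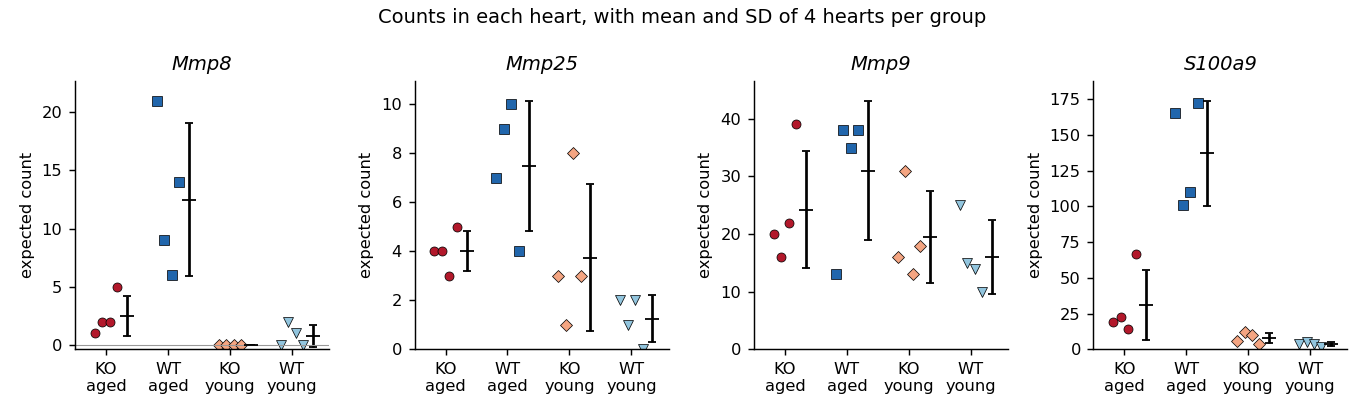
Expected counts per heart (points), with mean and SD of 4 hearts (bar), of Mmp8, Mmp25, Mmp9 and the neutrophil marker S100a9. Mmp8 has 6 to 21 counts in aged WT hearts and at most 5 in any other heart.

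Across the 36 tested members the ageing changes in KO and in WT hearts, which share no library, had the same sign for 24 members, 12 up and 12 down. Over all genes tested 70.6% had the same sign. Pearson's r across the members was 0.656, against 0.672 across all genes; genes are not independent replicates, and no test was made. Only Adamts9, Mmp12 and Timp3 were called in both, Timp3 with opposite signs. The members not called had log2 changes from -0.83 (Adamtsl1) to 1.59 (Timp1) in KO and from -0.70 (Mmp16) to 1.70 (Timp1) in WT ageing. In the genotype comparisons the range of members not called was -0.66 (Adamts4) to 0.56 (Mmp28) in aged hearts and -0.68 (Adamtsl2) to 0.98 (Adamts4) in young hearts.

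**Figure D5:**
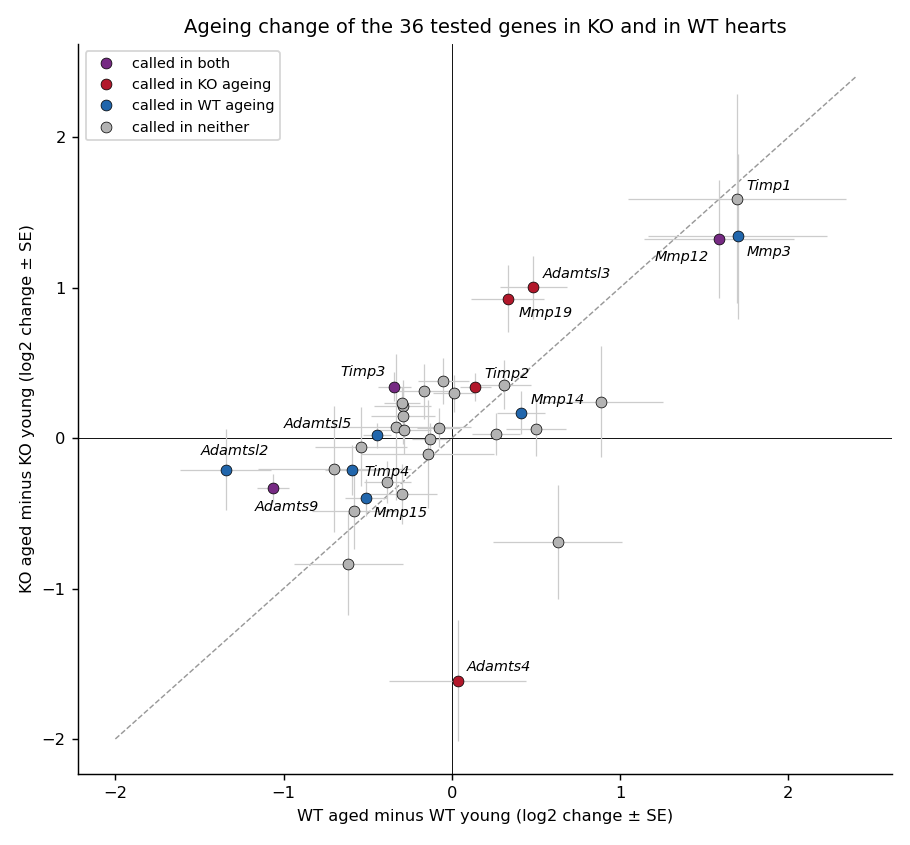
Log2 ageing change ± SE of the 36 tested genes in KO hearts (vertical axis) against WT hearts (horizontal axis); the dashed line marks equal change and colours mark the calls. Adamts9, Adamtsl2, Adamtsl5 and Timp3 lie above the line on the side of a fall in WT hearts, and Adamts4 far below it.

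Genes that act on or with the family were counted from lists. Of all genes, 5.03% rose and 2.64% fell with age in KO hearts, and 11.9% rose and 10.0% fell in WT hearts. Between aged KO and aged WT hearts 0.172% rose and 0.942% fell. These shares stand beside the list counts here and below. Among 17 other inhibitors, receptors and cofactors, Papln, an ADAMTS-like matrix protein with inhibitor domains, was higher in aged KO than in aged WT hearts by 0.61 ± 0.11 (adjusted p = 0.0102). It fell with age in WT hearts, with a change of -0.88 ± 0.11 (adjusted p = 2.33e-05), and had a difference in ageing change of 0.80 ± 0.16 (adjusted p = 0.0249). Mrc2, a receptor that takes up collagen fragments, was higher in aged KO hearts by 0.45 ± 0.10 (adjusted p = 0.0423) and had a fall with age in WT hearts, -0.36 ± 0.11 (adjusted p = 0.0201). With age in KO hearts 3 of the 17 rose, Spock2 (1.72), Thbs2 (0.57) and Pcolce2 (0.43), and 0 fell; in WT hearts 4 rose and 3 fell, with Spock2 at 0.88, Thbs2 at 0.69 and the matrix glycoprotein Sparc at -0.80. In the aged genotype comparison the Papln call was lost without aged heart KO-115 (log2 change 0.55, adjusted p 0.0615) and also in limma fits to log2 FPKM and in a fit to the 2 groups alone, and the Mrc2 call without aged hearts KO-114, KO-115, KO-122, WT-1, WT-4, WT-5 or WT-12 (log2 change 0.39 to 0.48, adjusted p 0.0531 to 0.154) and also with scaling by library size alone, in limma fits to log2 FPKM and in a fit to the 2 groups alone. The Papln difference in ageing change was lost without aged heart KO-115 or young hearts KO-53, WT-29, WT-34 or WT-42 (log2 change 0.71 to 0.80, adjusted p 0.0518 to 0.0730) and also with scaling by library size alone and in limma fits to log2 FPKM.

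Substrates of the proteases were called only downwards, and only with age. Of 19 tested, 2 fell with age in KO hearts, the basement membrane collagens Col4a1 (-0.70) and Col4a2 (-0.64), and 11 fell in WT hearts, among them Col4a1 (-1.20), Col4a2 (-1.09), Col5a1 (-0.72) and Nid1 (-0.64); 0 rose in either. Of all genes, 2.64% fell with age in KO hearts and 10.0% in WT hearts. The median log2 change of the substrates was -0.15 in KO and -0.58 in WT ageing. It was 0.27 in aged KO against aged WT hearts and -0.16 in young KO against young WT hearts. Over all genes tested these medians were -0.01, -0.01, 0.00 and 0.00. In the genotype comparisons 0 substrates were called, and 0 in the difference in ageing change. Fibroblast markers summed to 2875 to 3772 CPM in aged KO, 2407 to 3642 CPM in aged WT, 2800 to 3586 CPM in young KO and 2690 to 3311 CPM in young WT hearts, so all groups overlapped and none was at 0. Of the 12, 0 were called with age in KO hearts, while in WT hearts Postn rose (1.38) and Col1a1 (-1.23) and Col1a2 (-0.66) fell; Postn reached 401 CPM in 1 aged WT heart. Smooth muscle and pericyte markers summed to 1486 to 1574 CPM in aged KO and 1333 to 1633 CPM in aged WT hearts. The sums were 1587 to 1747 CPM in young KO and 1796 to 2113 CPM in young WT hearts. Of these 10 markers 0 fell with age in KO hearts and 5 in WT hearts, against 2.64% and 10.0% of all genes. Of 10 cardiomyocyte markers, 1 (Myl2) fell with age in KO hearts and 3 (Actc1, Myh6 and Mybpc3) in WT hearts, and 0 rose in either. Of 10 endothelial markers, 2 rose and 2 fell with age in KO hearts, and 1 rose and 3 fell in WT hearts. The part of any of these markers in the falls of Adamts9, Adamtsl2, Timp3 and Timp4 was not tested.

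Of 9 genes of the plasmin system and the convertases, 0 were called with age in KO hearts; in WT hearts the urokinase gene Plau (0.73) and the protease inhibitor gene Serpine2 (0.52) rose. Among 17 other matrix-processing enzymes, Mme rose (0.81) and Adam19 fell (-0.59) with age in KO hearts, and Adam8 rose in WT hearts (1.14). Of 21 transcription factors and cytokines known to induce matrix proteases, the cytokine gene Il1b was lower in aged KO than in aged WT hearts, with a change of -1.80 ± 0.34 (adjusted p = 0.0107), a call lost without aged hearts KO-115 or KO-122 (log2 change -1.74 to -1.73, adjusted p 0.0568 to 0.0594) and also in a fit to the 2 groups alone. With age in KO hearts Runx1 (0.74) and Etv4 (1.54) rose and Atf3 (-0.94) fell. With age in WT hearts Il1b (2.26) and Runx1 (1.42) rose, while the AP-1 genes Jund (-0.56), Jun (-0.42) and Atf3 (-0.75) fell. In young KO against young WT hearts 0 genes of these lists were called. Leaving out 1 heart ended the WT ageing calls of Serpine2 and Jun and the KO ageing calls of Adam19, Atf3, Etv4, Pcolce2 and Runx1.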

How the data were processed

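Bulk RNA of 16 hearts was measured. The authors deposited expected counts per gene and FPKM values, and both tables were used. The submitters' processing notes name HISAT, Bowtie2 and the build GRCm39 with no version; the counting program, strand setting and sequencing batches are not given in the sources used here. From 9.57% to 10.5% of a library's counts were not whole numbers and were rounded. Groups follow the genotype label and age, since the titles of the young WT hearts use other letters than that label. Hearts were not paired, as each animal number belongs to 1 group only.

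Counts were tested in R 4.3.3 with edgeR 4.0.16 (filterByExpr, TMM, quasi-likelihood fit to 4 groups, 12 residual degrees of freedom), with Benjamini-Hochberg adjustment over 13373 genes; the procedure was tested on simulated data. Total counts of 11456503 to 13298660 per heart set the precision of low-level genes. Alternatives were DESeq2 1.42.0 or its size factors, library size alone, other filters, limma 3.58.1 on log2(FPKM + 1) or log2(FPKM + 0.1), a fit to 2 groups, a robust fit, and leaving out each heart. No 2 libraries of the same group agreed within counting error (lowest chi-square 3.73 per degree of freedom).

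Values in every heart are given for each called member and for Timp1 to Timp4, Mmp2, Mmp9 and Mmp14; up to 4 called genes are named per comparison from each other list, by adjusted p. The members and lists were chosen with earlier results of these data known. Some results on genes outside the family are not reported here.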

Additional observations from a re-analysis of the deposited data

Results flagged for a closer look

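Of 68 sets of 4 hearts examined, the CPM of the 16 members given heart by heart in that unit and of Mmp8 in each of 4 groups, 9 had a heart standing apart from the other 3 by Dixon's test; chance gives about 1 in 20. In young KO hearts, heart 27 was high for Adamts4 at 3.53 CPM (others 0.990 to 1.40 CPM), for Mmp2 at 85.5 CPM (others 69.2 to 71.4 CPM) and for Timp1 at 4.12 CPM (others 0.906 to 1.24 CPM). Young heart KO-31 was high for Adamts9 at 29.6 CPM (others 22.8 to 23.9 CPM), and young heart KO-53 was low for Mmp19 at 2.001 CPM (others 2.80 to 2.89 CPM). Aged heart WT-1 was high for Mmp3 at 51.2 CPM (others 7.36 to 12.8 CPM) and for Timp1 at 23.1 CPM (others 2.22 to 3.76 CPM). Aged heart WT-5 was low for Adamtsl5 at 68.8 CPM (others 81.1 to 81.6 CPM), and aged heart KO-122 was high for Mmp12 at 3.05 CPM (others 1.53 to 1.78 CPM).

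The ageing changes in KO and in WT hearts differed by the test of that difference for Adamts9, by 0.73 on the log2 scale, and for Timp3, by 0.69; both values are KO minus WT.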

How the results depend on the processing

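Of the 21 calls of members in the 5 comparisons, 6 held in all alternatives run: the falls of Adamts9, Adamtsl2, Adamtsl5, Mmp15 and Timp4 with age in WT hearts and the rise of Adamtsl3 with age in KO hearts. No called value changed sign. In aged KO against aged WT hearts the count of members called was 1, and 0 with library size alone, in both limma fits and in the fit to 2 groups (0 to 1 when 1 heart was left out). In young KO against young WT hearts it was 2, but 1 with library size alone or with the filter of 1 CPM in 4 libraries, and 0 in both limma fits (0 to 1 when 1 heart was left out). With age in KO hearts it was 7, and 2 to 6 when 1 heart was left out. With age in WT hearts it was 9, but 14 with DESeq2 and 15 with no filter (6 to 11 when 1 heart was left out). For the difference in ageing change it was 2, and 1 in both limma fits (1 to 2 when 1 heart was left out).

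Signs that turned were all of uncalled values. In aged KO against aged WT hearts Mmp14 ranged from -0.118 (without aged heart WT-12) to 0.0642 (without aged heart WT-4), and Timp1 from -0.838 (without aged heart WT-4) to 0.952 (without aged heart WT-1), with 0.0783 on log2(FPKM + 1) and 0.14 on log2(FPKM + 0.1). Mmp9 ranged from -0.0153 (without young heart KO-31) to 0.574 (without young heart WT-29) in young KO against young WT hearts, and from -0.10 (without aged heart KO-125) to 0.551 (without young heart KO-31) with age in KO hearts. The difference in ageing change of Timp1 ranged from -0.453 (without young heart WT-29) to 1.37 (without aged heart WT-1), and became 0.53 on log2(FPKM + 1), 0.77 on log2(FPKM + 0.1), 0.0056 without aged heart KO-115 or KO-125, 0.70 without young heart KO-27 and 0.08 without young heart WT-39. The cause was not tested.

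Over all genes DESeq2 called 263, against 149 by edgeR, in aged KO against aged WT hearts, 149 against 43 in young KO against young WT hearts, and 213 against 77 for the difference in ageing change. With library size alone, 917 genes rose and 190 fell with age in KO hearts, against 673 and 353 with TMM, and 1961 rose and 771 fell in WT hearts, against 1588 and 1342. Expression of Mmp12, Adamts4 and the 11 untested members lies near or under the filter, where depth limits what 4 hearts can show. No paired analysis was possible because each animal number belongs to 1 group only.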
